A study of Mus musculus with 3 samples.

Results

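Transducin, the G protein of vertebrate photoreceptors, was measured through 4 of its subunit genes, represented by 6 of the 12422 probe sets of the array that are not controls. Gnat1 encodes the rod alpha subunit, Gnb1 the beta subunit of rods, Gnat2 the cone alpha subunit and Gngt2 the cone gamma subunit. On this array each transcript is read by a probe set, several short probes whose brightness is combined. Every probe set whose platform symbol is exactly one of these 4 names, and no other, was taken. Gnb1 has 3 probe sets and the other genes have 1 each. The genes were chosen by their signals in the same pools that are described here, so the differences between pools below are a description and carry no test.

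The samples were 3 pools of neural retina from wild-type mice at postnatal day 10, each made from 3 to 4 animals of mixed 129/SvEv and C57BL/6 background. The animals were littermates of Rp1-/- mice, which were not analysed here, and tissue was taken between 1 and 2 pm. Each pool was hybridised to 1 U74Av2 array, a 1-colour design in which the value is the brightness of a probe set. The pools form 1 group, and nothing in the labels says whether any animal gave tissue to more than 1 pool. The names of pools 2 and 3 carry the tag rp1 while that of pool 1 does not. Their descriptions are the same, and these set the group.

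In the dark-adapted photoreceptor, transducin sits on the outer segment membrane as an alpha subunit with bound GDP joined to a beta-gamma pair. Light-activated opsin makes the alpha subunit exchange GDP for GTP and leave the pair, and the free alpha subunit switches on the cGMP phosphodiesterase by binding its inhibitory gamma subunits. Rods and cones build this switch from different gene products. Rods use Gnat1, Gnb1 and Gngt1, and cones use Gnat2, Gnb3 and Gngt2. Gnb1 is also made in many other neurons and non-neuronal cells, whereas both alpha subunits are close to restricted to photoreceptors within the retina. At postnatal day 10 the mouse retina is still laying down its outer segments, so the genes of the cascade are in a period of accumulation. In tissue pools of this kind, fewer cells of a type and less RNA per cell cannot be told apart.

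RefSeq windows around the transcription start, 250 bases before it to 50 after, were held for Gnb1 and Gnat2 (2 of the 4 genes). They are shown because the pair sets a broadly made subunit beside a cone subunit, and the letters differ in kind. Capitals mark matches to any of 4 motifs searched on both strands: TAATCC, the core bound by the photoreceptor homeodomain factors CRX and OTX2, TGCTGA, one arm of a site bound by NRL and other MAF factors, GGGCGG, the GC box bound by SP factors, and TATAAA, the TATA box. The Gnb1 window is chr4:155491111-155491410 and the Gnat2 window is chr3:108092816-108093115, both on the plus strand of GRCm38.p6.
Gnb1: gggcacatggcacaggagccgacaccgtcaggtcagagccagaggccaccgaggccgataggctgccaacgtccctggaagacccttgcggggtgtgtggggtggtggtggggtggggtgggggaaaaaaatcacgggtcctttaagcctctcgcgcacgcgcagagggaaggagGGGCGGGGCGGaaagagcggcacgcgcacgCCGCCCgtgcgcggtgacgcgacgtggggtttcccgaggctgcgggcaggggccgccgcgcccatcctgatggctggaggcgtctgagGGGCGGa
Gnat2: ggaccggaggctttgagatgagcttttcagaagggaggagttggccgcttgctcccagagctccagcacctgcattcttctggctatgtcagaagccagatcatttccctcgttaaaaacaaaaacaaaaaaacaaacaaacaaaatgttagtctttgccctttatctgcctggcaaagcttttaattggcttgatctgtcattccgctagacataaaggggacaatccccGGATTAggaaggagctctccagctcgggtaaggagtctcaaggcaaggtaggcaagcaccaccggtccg

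The Gnat2 window holds a single match among the 4 motifs. It is TAATCC on the minus strand, printed above as GGATTA, and it lies at bases -19 to -14 counted from the start, with the start as base 1. This hexamer occurs on either strand in 7.06% of the 32851 windows in the table, which belong to 27025 genes, and in at least 1 window of 8.14% of these genes. Among other genes of the rod and cone cascades with a window, 8 of 19 have it: Cnga1, Cngb1, Gnb5, Gngt1, Guca1a, Gucy2e, Gucy2f and Sag. The Gnb1 window has none of these and holds 4 matches to GGGCGG, of which the pair at -75 to -70 and -70 to -65 shares a base, while the others lie at -45 to -40 on the minus strand and 44 to 49 on the plus strand. GGGCGG is found in 35.7% of all windows, TGCTGA in 19.5% and TATAAA in 13.6%. Of the same 19 cascade genes, 2 have GGGCGG, 5 TGCTGA and 7 TATAAA, against 38.2%, 21.7% and 15.7% of all genes. The Gnb1 window also has 31 CpG dinucleotides and a GC content of 70.3%, against 8 and 48.7% for Gnat2 and medians of 7 and 52.7% over all windows. A match is a run of letters and does not show that a factor binds there.

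Signals are given in the deposited intensity units, without a comparison of level between probe sets, whose probes differ in brightness. As a limit for background, the 90th percentile over 87 probe sets, which stand for 71 genes known from tissues other than the eye, was computed per array. It came to 299.1, 344.1 and 274.6 in pools 1, 2 and 3. All 6 transducin probe sets were above it in every pool, as were 36.9% of the 12422 probe sets. The arrays had equal trimmed means and medians of 234.2, 254.1 and 243.3, so that scaling on the median would move pool 2 by 0.12 against pool 1 on the log2 scale. For the Actb controls the 3′ set divided by the 5′ set, a sign of RNA integrity, gave 1.20, 1.44 and 1.69, the same order of pools as Gnb1 below. For Gapdh it gave 0.95, 0.88 and 0.93. Summed lens marker signal, over 12 measured genes of which 8 were above the limit in every pool, was 226900 in pool 1, 36750 in pool 2 and 423800 in pool 3. All 12 were highest in pool 3 and none was listed at 0.

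Rod transducin alpha separated 1 pool from the other two. The readings of Gnat1 (99860_at) were 1014.7, 1101.3 and 10970.1 in pools 1 to 3. Pools 1 and 2 lay within 1.09-fold of each other, and pool 3 was 10.8-fold above pool 1 and 9.96-fold above pool 2. The mean of 4362 ± 5720 (SD, n = 3) is therefore a value that no pool was near, and the SD on the log2 scale was 1.95. Even the lowest reading was 3.20 times the background limit of its array. Of the 5473 probe sets above the limit on average, 10 had a wider range than Gnat1. These 10 included lens markers, which were highest in pool 3 too. Of the 596 sets with a mean log2 signal within 0.5 of that of Gnat1, all had a narrower range, with a median of 1.34-fold. Without pool 3 the log2 range of Gnat1 went from 3.43 to 0.12.

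The rod beta subunit was graded across the pools rather than split. The Gnb1 set 97458_at read 7629.7, 14796.4 and 28821.2 in pools 1, 2 and 3, a 3.78-fold range. The set 94854_g_at read 5267.4, 11477.1 and 19797.1, a 3.76-fold range, and 94853_at read 2986.5, 4717.3 and 5995.5, a 2.01-fold range. All 3 sets were lowest in pool 1 and highest in pool 3. They are not 3 separate views of the transcript, since 94853_at and 94854_g_at come from the same source record and only 97458_at from another. The sets differed in how the range was divided. In the order in which they are named above, pool 2 was above pool 1 by 0.96, 1.12 and 0.66 on the log2 scale, and pool 3 was above pool 2 by 0.96, 0.79 and 0.35. The Actb end ratio, at 1.20, 1.44 and 1.69, was graded in the same order, and its part in the Gnb1 readings was not tested. The log2 SDs were 0.96, 0.96 and 0.51 (n = 3). At like signal level (mean log2 within 0.5), 47 of 49, 89 of 95 and 245 of 260 other sets had a narrower range.

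**Figure D1:**
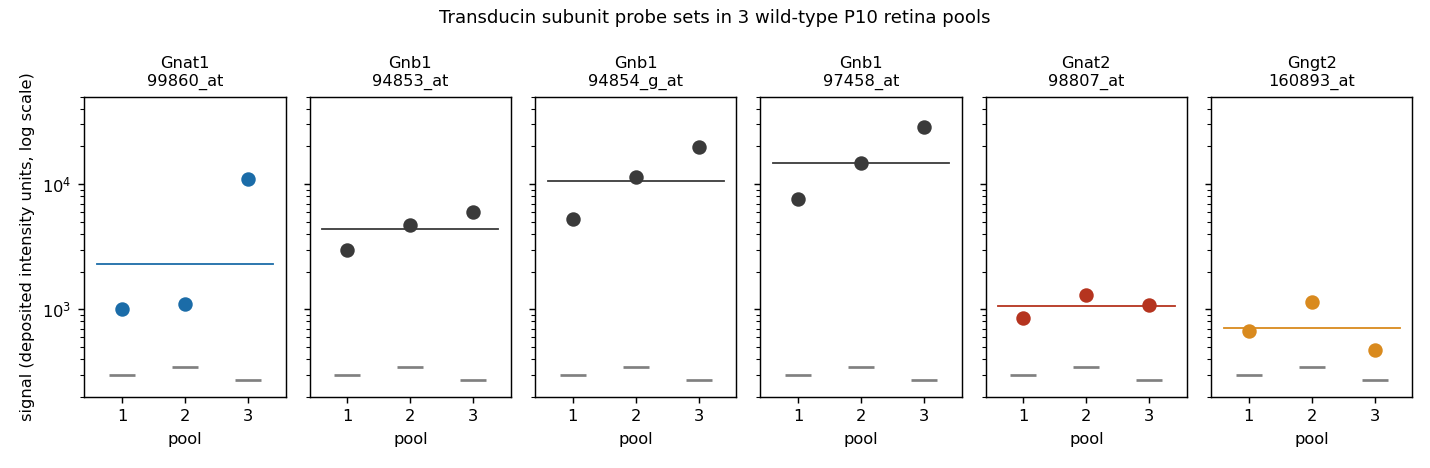
Signal of each of the 6 transducin probe sets (deposited intensity units, log axis) in pools 1, 2 and 3, with 1 point per pool. The coloured line is the geometric mean of the 3 pools and the grey bars are the background limits of 299.1, 344.1 and 274.6. Gnat1 stands at 1014.7 and 1101.3 in pools 1 and 2 and at 10970.1 in pool 3, the Gnb1 sets are in the order of pools 1, 2 and 3, and Gnat2 and Gngt2 are highest in pool 2.

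The cone alpha subunit was the most even of the 4 genes. Gnat2 (98807_at) stood at 855.1, 1289.2 and 1078.9 over the pools in turn. Its mean was 1074 ± 217 (SD, n = 3) and its log2 SD was 0.30. Its 1.51-fold range was wider than that of 58.5% of the sets above the limit on average, whose median was 1.43-fold, so its spread was ordinary for this array. The reading in pool 3, where Gnat1 was 10.8-fold above pool 1, was 1.26-fold above pool 1 for Gnat2.

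The cone gamma subunit varied more. Gngt2 (160893_at) stood at 675.0 in the first pool, 1133.6 in the second and 468.7 in the third. Its mean was 759.1 ± 340 (SD, n = 3) and its log2 SD was 0.64. It was the only one of the 6 sets that was lowest in pool 3, where it stood 1.71 times above the background limit, and it was 2.42-fold lower there than in pool 2. Of 1891 sets of like level, 1814 had a narrower range. Both cone subunits were highest in pool 2, as were 35.1% of the sets above the limit on average, and they parted in pool 3.

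Over the 6 probe sets, 5 had a range over 2-fold, against 13.3% of the 5473 sets above the limit on average, and 4 were lowest in pool 1 and highest in pool 3, against 13.9%. Of these 4, 3 report on Gnb1, so the count stands for 2 genes. The 2-fold count also rests on a value just past the threshold, since 94853_at had a log2 range of 1.01, and it was 4 with median scaling or quantile normalization. Without pool 1, 2 or 3 the count was 2, 4 or 1.

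**Figure D2:**
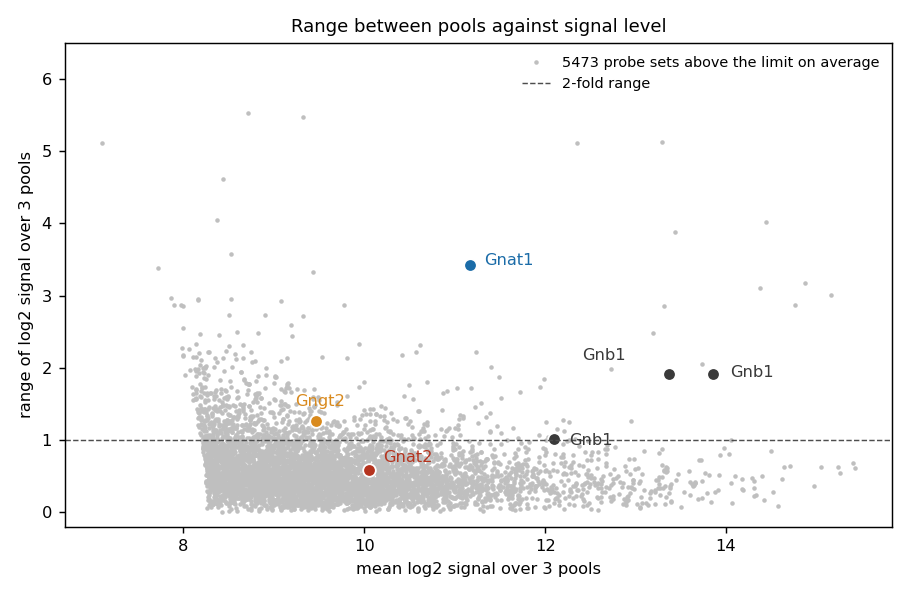
Range of log2 signal over the 3 pools (y axis) against mean log2 signal (x axis) for the 5473 probe sets above the background limit on average (grey), with the transducin sets in colour and the 2-fold range as a dashed line. Gnat1, at a range of 3.43, lies above all sets of similar level, and Gnat2, at 0.59, lies within the bulk.

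Ratios of 2 subunits on 1 array do not depend on a scaling factor of that array, and their change between pools shows unequal change of the pair. The log2 ratio of Gnat1 to Gnb1 (97458_at) was lower in pool 2 than in pool 1 by 0.84, and higher in pool 3 than in pool 1 by 1.52, that is 2.86-fold. With 94854_g_at the second value was 1.52 too, and with 94853_at it was 2.43, so the size depends on the Gnb1 set and the direction was the same with all 3. Rod alpha thus differed more than rod beta between pools 1 and 3, and less than rod beta between pools 1 and 2. Against cone alpha, the ratio of Gnat1 to Gnat2 was 8.57-fold higher in pool 3 than in pool 1, and that of Gnb1 to Gnat2 was 2.99-fold higher with 97458_at, 2.98-fold with 94854_g_at and 1.59-fold with 94853_at. Within the cone pair, the ratio of Gnat2 to Gngt2 differed by 1.11-fold between pools 1 and 2 and was 1.82-fold higher in pool 3 than in pool 1. The widest of the 9 ratios computed was Gnat1 to Gngt2, 24.1-fold higher in pool 3 than in pool 2. Its size rests in part on Gngt2 in pool 3, a reading at 1.71 times the background limit. Quantile normalization, which can change a ratio, gave 1.74, 2.94 and 0.88 in place of 1.52, 3.10 and 0.86 for Gnat1 to Gnb1, Gnat1 to Gnat2 and Gnat2 to Gngt2 between pools 1 and 3.

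**Figure D3:**
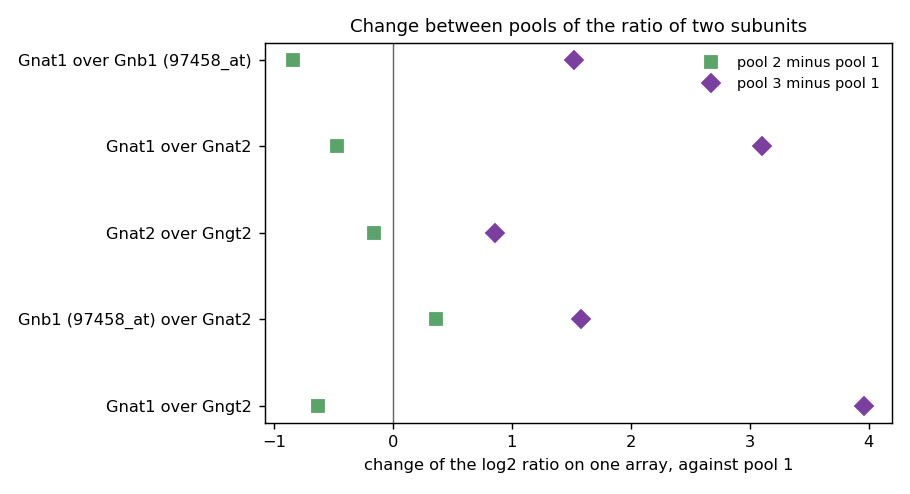
Change of the log2 ratio of 2 subunits measured on the same array, in pool 2 (squares) and pool 3 (diamonds) against pool 1, with Gnb1 taken from 97458_at. All 5 ratios lie to the right of 0 in pool 3, from 0.86 for Gnat2 over Gngt2 to 3.96 for Gnat1 over Gngt2, and 4 of the 5 lie to the left of 0 in pool 2.

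The remaining subunits of the 2 transducins add 1 gene. Gnb3, the beta subunit of cones and of ON bipolar cells, read 5091.7, 5047.3 and 6702.9, a 1.33-fold range with pool 3 highest. The rod gamma subunit Gngt1 was not analysed here. For Gnb3, pools 1 and 2 were nearly level, at 5091.7 and 5047.3. Gnat2 was lowest in pool 1 and Gngt2 in pool 3, and both were highest in pool 2, where Gnb3 was not.

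Among 11 other measured genes of the rod cascade, 8 were highest in pool 3 (72.7%), against 33.6% of 8251 named genes, and 5 had a range over 2-fold (45.5%), against 35.5%. One of the 5, Rgs9, was above the background limit in no pool, and among the 10 above it on average 4 had such a range, against 12.8% of 4336 genes. The median range of the 11 was 1.86-fold and that of all named genes, many of them dim, was 1.67-fold. For the 10 above the limit on average it was 1.75-fold, against 1.43-fold for the 4336 genes. Downstream of transducin, Pde6a, a catalytic subunit of the rod phosphodiesterase, read 557.3, 620.3 and 1189.5. This is the shape of Gnat1 at a smaller size, with pools 1 and 2 close and pool 3 higher by 2.13-fold over pool 1. Pde6g, the inhibitory subunit that the active alpha subunit binds, read 13730.9, 12851.3 and 23847.9, while Pde6b, the other catalytic subunit, was even at 9198.1, 9943.9 and 11793.3. The channel subunit Cnga1 read 665.4, 1189.1 and 1440.0 and so was graded as Gnb1 was.

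Among genes that regulate the signal, Rcvrn, recoverin, a calcium sensor that restrains rhodopsin kinase, read 3145.5, 2429.2 and 8725.7, a 3.59-fold range. Sag, rod arrestin, read 22065.8, 24853.5 and 34553.8, a 1.57-fold range. Guca1a, an activator of guanylate cyclase, read 971.3, 978.0 and 1594.0, and its cyclase Gucy2e, which did not pass the limit in pool 1, read 251.4, 382.6 and 372.5. None of the 11 had a range as wide as that of Gnat1, and Rcvrn came nearest. Without pool 3 the median log2 range of these genes went from 0.89 to 0.16. Lens marker signal and the Actb end ratio were highest in pool 3 as well (423800 and 1.69), and their part in these differences was not tested.

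In the cone cascade 4 other genes were measured and 2 were above the limit in every pool. Opn1sw, the short-wavelength opsin, read 1475.3, 1657.0 and 1538.9. It was steadier than either cone transducin subunit, with a range of 1.12-fold. Opn1mw, the medium-wavelength opsin, read 211.3, 346.1 and 646.7 and was not above the limit in pool 1. Cnga3, a cone channel subunit, was above it in no pool. No single order of pools was therefore shared by all the cone genes, though Opn1sw had that of Gnat2 and the dim Cnga3 that of Gngt2.

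Proteins that bind transducin subunits were compared next, 9 of which were measured. Pdc, phosducin, which binds the beta-gamma pair in photoreceptors, was nearly constant at 21087.5, 23618.6 and 21312.9, a range of 1.12-fold beside 2.01-fold to 3.78-fold for the 3 Gnb1 sets. Unc119, which carries the acylated alpha subunit through the cytoplasm, read 13634.0, 9637.6 and 14316.2. Pde6d, which carries prenylated proteins, read 2006.0, 1319.4 and 2204.0. Both were lowest in pool 2, and neither was in the order of Gnat1 or Gnb1. Of the 9 partners, 0 were lowest in pool 1 and highest in pool 3, beside 16.9% of all named genes. A list of 9 is too short to read a difference from this.

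The complex that speeds GTP hydrolysis by the alpha subunit was measured in part. Gnb5, which encodes its beta subunit, read 892.7, 831.0 and 1701.9, highest in pool 3. Its catalytic partner Rgs9 was above the limit in no pool, at 118.7, 175.7 and 66.5. Rgs16, another accelerator of GTP hydrolysis, read 851.4, 1147.8 and 587.5, highest in pool 2 and lowest in pool 3 as Gngt2 was. Ric8a, a chaperone of alpha subunits, read 632.6, 483.1 and 578.0. Gpsm3 was above the limit in 2 pools and Gpsm1 in none.

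Enzymes that add or trim the lipid anchors of G protein subunits had 6 measured members, of which 4 were above the limit in every pool. Nmt1, which attaches an acyl chain to alpha subunits, was the steadiest at 781.6, 827.8 and 795.9. Fnta, a subunit shared by both prenyltransferases that modify gamma subunits, read 1676.3, 1275.1 and 1162.2, and Fntb, which completes the farnesyl enzyme, read 582.9, 250.7 and 304.0 and was not above the limit in pool 2. The enzymes that finish the anchor, Rce1 at 1085.2, 812.1 and 1423.7 and Icmt at 433.0, 390.3 and 630.6, were highest in pool 3. None of the 6 had the order of pools of Gnb1, which 16.9% of all named genes had, a share that comes to about 1 gene in a list of 6. Nmt2 was above the limit in no pool.

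**Figure D4:**
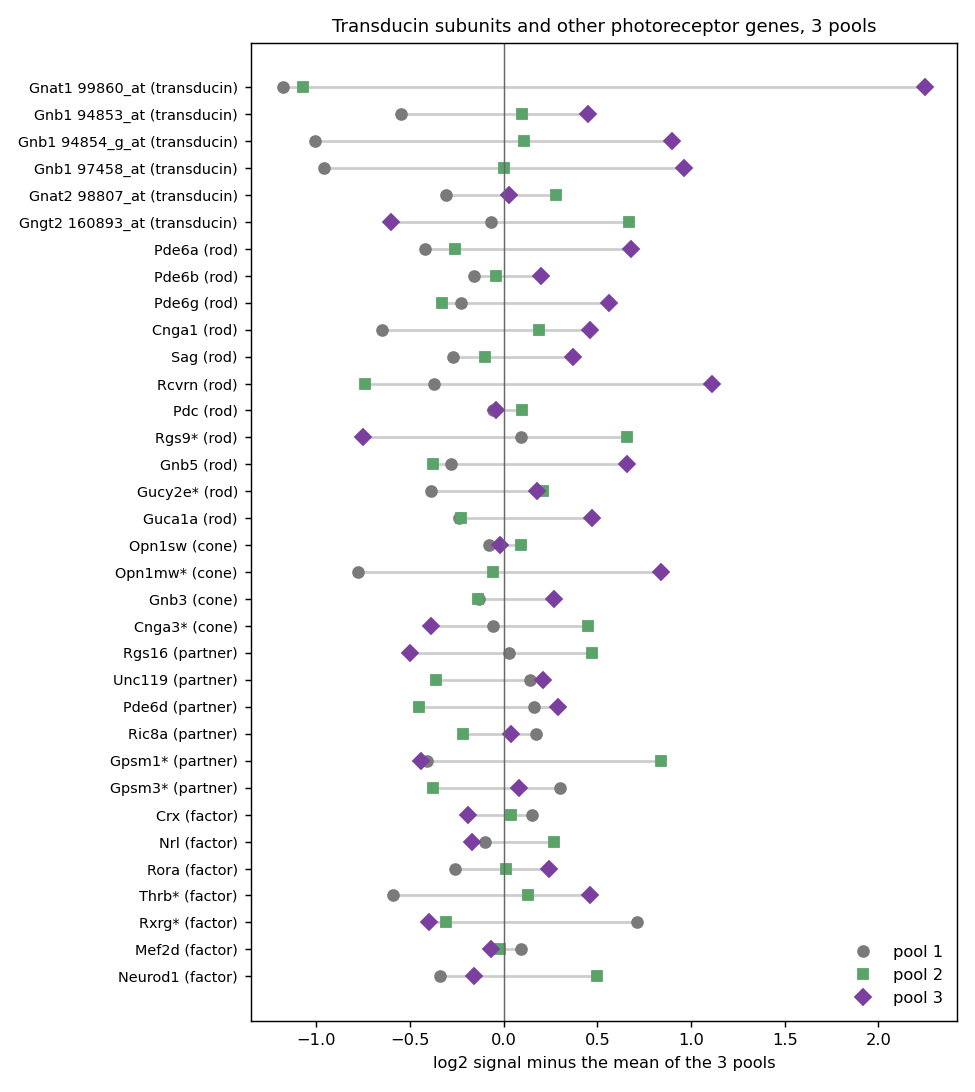
Log2 signal minus the mean of the 3 pools for the 6 transducin probe sets and for the measured genes of the rod and cone cascades, transducin partners and photoreceptor transcription factors, with 1 marker per pool and a line over the range; an asterisk marks a gene not above the background limit in every pool. Gnat1 reaches 2.25 in pool 3, while the lines of Pdc, Opn1sw and Mef2d are short, with ranges of 1.12-fold, 1.12-fold and 1.11-fold.

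Of 12 other alpha subunit genes measured, 8 were highest in pool 3 (66.7%), against 33.6% of all named genes, and 8 were above the limit in every pool. Among the 9 above it on average, 5 were highest in pool 3, against 32.3%, and their orders of pools differed. Gnai3, of the same Gi class as the transducins, ran opposite to Gnb1, at 2793.6, 1967.2 and 1274.3, a 2.19-fold range with pool 1 highest, and Gna13 did so too at 719.8, 450.8 and 348.0, as did Gna12 at 685.3, 462.1 and 438.5. Gnaz, another member of the Gi class, read 411.9, 378.4 and 1007.9, with pools 1 and 2 close, pool 3 above them and a 2.66-fold range. Gnao1, the alpha subunit of ON bipolar cells and many other neurons, read 3886.9, 6912.2 and 6382.4. Gnas, the stimulatory subunit, and Gnai2, on the sets with the highest mean, had ranges of 1.38-fold and 1.24-fold. Gnai1 was in the order of Gnb1 with a range of 1.27-fold. Of the rest, Gna11 was above the limit in 2 pools, Gnaq in 1, and Gna14 and Gna15 in none. Other sets of Gnao1, Gnas and Gnai2 read otherwise, and only the brightest of each is described.

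Of 10 other beta and gamma subunit genes measured, Gnb3 and Gnb5 among them, 9 were highest in pool 3, against 33.6% of all named genes, and 5 were above the limit in every pool. All 6 above the limit on average were highest in pool 3, against 32.3%. Gnb2, the beta subunit closest to being made everywhere, read 5220.5, 4787.4 and 5622.6, a 1.17-fold range. That stood beside 2.01-fold to 3.78-fold for the 3 Gnb1 sets on the same arrays. Gng3, a neuronal gamma subunit, read 4149.0, 3450.2 and 6041.3, and Gng10 read 489.9, 541.0 and 553.0. Gng12 was above the limit in 2 pools. Gnb4, Gng2, Gng4 and Gng11 were above the limit in no pool, so their order rests on dim signal.

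Among transcription factors of photoreceptors, 2 of 7 measured had the order of Gnb1 (28.6%), against 16.9% of all named genes. Of the 5 above the limit on average 1 had it, against 13.9%, so both counts lay near the share of all genes. In all, 5 were above the limit in every pool. Crx, which drives photoreceptor genes, read 8222.9, 7619.8 and 6475.1, and Mef2d read 7222.0, 6668.0 and 6482.5. Both were lowest in pool 3, where Gnat1 and Gnb1 were highest. Their ranges of 1.27-fold and 1.11-fold were below the median of 1.43-fold over the sets above the limit on average. Nrl, which specifies rods, read 518.5, 672.0 and 493.6, and Neurod1 read 3245.1, 5805.7 and 3685.1, both highest in pool 2 as Gnat2 and Gngt2 were. Of the sets above the limit on average, 35.1% were highest in pool 2 too. Rora was one of the 2 in the order of Gnb1, at 534.6, 644.8 and 757.3. The other was Thrb, which like Rxrg was above the limit in no pool.

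The tissue label was checked against markers of retinal and other cells. Signal summed over the measured markers, in pools 1, 2 and 3, was 33130, 32540 and 45320 for 7 outer segment genes, all of them above the limit in every pool. For 5 bipolar cell genes it was 7488, 11460 and 11380, for 8 Müller glia genes 20720, 19760 and 30540, and for 11 amacrine and ganglion cell genes 14180, 12350 and 18160. For 7 pigment epithelium genes it was 1198, 1836 and 1921, with 5 of the 7 above the limit in no pool. Signal of 13 vascular and red cell genes was 24130, 6867 and 18480, that of 11 immune genes was 1948, 2000 and 1670, and that of 13 cell cycle and progenitor genes was 6408, 5712 and 4613. No measured marker was listed at 0. Summed outer segment, Müller glia, amacrine and ganglion, pigment epithelium and lens signal was highest in pool 3 alongside Gnat1 and Gnb1. The part of these signals in the transducin readings was not tested. A sum weighs bright genes most. By gene, 5 of 7 outer segment, 6 of 8 Müller glia and 7 of 11 amacrine and ganglion genes were highest in pool 3. Of 7 pigment epithelium genes 3 were highest there and 4 in pool 2, and all 12 lens genes were highest in pool 3. The share over all named genes was 33.6%. Lens signal was lowest in pool 2, where Gnat1 was level with pool 1 and Gnb1 was above it.

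The probe sets nearest to each member in their pattern were sought among named sets above the limit in every pool, by the root mean square difference of log2 signal centred on its mean over the 3 pools. With 3 pools a likeness is easily met, and the number of sets within 0.1 serves as a scale. For Gnat2 there were 212 such sets among 4149 (5.11%), for Gngt2 19 (0.458%), and for Gnat1 0. For Gnb1 there were 0 among 4147 with 97458_at or 94854_g_at, and 24 (0.579%) with 94853_at. The difference is not scaled for size, so a set with a wide range has few sets near it whatever its shape. These counts thus go with the log2 ranges, 0.59 for Gnat2 and 3.43 for Gnat1, and are not a separate result about pattern.

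Nearest to Gnat1 came Drd4, a dopamine receptor gene, at a difference of 0.56, with readings of 536.9, 648.0 and 2699.7. Clu (0.81), Col4a2 (0.81), Rcvrn (0.83) and Slc6a6 (0.88) came next, each with pool 3 highest and a range between 3.31-fold and 4.65-fold. Nearest to Gnb1 (97458_at) were Slc6a6, the taurine transporter, at 0.16 with readings of 1626.2, 2471.1 and 5939.4, then Gstm2 (0.22), Fbln1 (0.24), Pcp2, a bipolar cell gene (0.26), and Syk (0.28). The same was done for the other Gnb1 sets after their values were seen. For 94853_at they were Agpat1 (0.019), Fahd1, Banp, Nip7 and Cdip1, and for 94854_g_at they were Gstm2 (0.21), Slc6a6, Pcp2, Gja1 and Fbln1. The lists of 97458_at and 94854_g_at shared 4 genes, and that of 94853_at shared none with them. Slc6a6 was among the nearest 5 of Gnat1 and of these 2 Gnb1 sets. For Gnat2 they were Scg2 (0.0038), Rmc1, Psma7, Slirp and Itfg1, and for Gngt2 they were C1qtnf1 (0.024), Elovl2, Wdfy2, Asnsd1 and Tardbp. None of the 10 genes nearest to the cone subunits was on the lists of the phototransduction cascade. Only 9 rod and 2 cone genes of those lists were above the limit in every pool, beside 4149 sets compared. With so few listed genes such an absence is likely for any set, and nothing about the cone subunits is read from it.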

How the data were processed

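The authors' deposited table gives a linear intensity for 12488 probe sets on 3 arrays, 66 of them controls. The condensing software, scaling and genome build are not given in the sources used here. No detection calls were used, and the number of arrays limits the precision. The mean without 2% of the values at each end differed by 0.00775% between arrays, within a tolerance of 5%, so the deposited values were used as they stand.

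Symbols came from GEO's platform annotation, updated by Entrez number through RefSeq genes (GRCm38.p6). A single symbol was held by 10855 sets, and 396 with several were left out. Each listed gene was taken from the set with the highest mean. Values below 1 were set to 1 before log2. The members and the gene lists were chosen with earlier results of these data known. The text names all members, the measured genes of the pathway lists and the 5 nearest sets of each member gene, by its set with the highest mean. The rule also allowed the first 4 markers of each cell type list, which are given as sums. The procedures were tested on simulated data with less noise than these arrays, whose median log2 SD was 0.27 over sets above the limit on average. That tested the calculations and not how they perform at the noise of these pools. Median scaling, quantile normalization, a floor at the limit, limits at the 80th and 95th percentiles, averaged probe sets and leaving out each pool were tried. Python 3.11.15, numpy 2.4.6 and pandas 2.3.3 were used.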

Additional observations from a re-analysis of the deposited data

How the results depend on the processing

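Of 75 alternative values, 66 moved by less than the spread between pools, or by less than 1.5 times for a count, and 9 moved further, each by leaving out a pool. With 2 pools the log2 range lay between 0.12 and 3.43 for Gnat1, between 0.35 and 1.01 for 94853_at, between 0.79 and 1.91 for 94854_g_at, between 0.96 and 1.92 for 97458_at, between 0.26 and 0.59 for Gnat2 and between 0.53 and 1.27 for Gngt2. The count of transducin sets past a 2-fold range lay between 1 and 4, and the median log2 range of the other rod cascade genes between 0.16 and 0.80. A range over 2 pools cannot exceed that over 3. With quantile normalization the log2 range was 3.34 for Gnat1 and 1.60 for 97458_at. The 6 transducin sets were above the limit in every pool with limits at the 80th and 95th percentiles, and 4 were lowest in pool 1 and highest in pool 3 under both scalings. The nearest 5 sets were the same by the largest single difference for Gnat1, Gnat2, Gngt2 and 94854_g_at, and 4 of 5 were for 94853_at and 97458_at. No paired analysis was possible because the pools form 1 group. Gngt2 in pool 3, at 1.71 times the limit, was the dimmest reading relative to background.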
